A study of Homo sapiens with 36 samples.

Results

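The insulin-like growth factor binding proteins IGFBP1 to IGFBP6 and the receptors IGF1R and IGF2R were examined for binding of tagged HIF-a proteins in 786-O, a cell line from a clear cell carcinoma of the human kidney. Peaks were taken from 18 anti-V5 Cut&Run lists where the summit, the base of highest signal, lay in the GENCODE gene body of a member or within 50 kb on either side. By this rule 210 of 213711 peaks belonged to the 8 genes. After peaks of all lists were merged where they overlapped, the 8 genes had 29 of the 25783 regions called in at least 2 libraries, and 26 further regions were called in 1 library. The rule uses gene names and positions alone.

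Cut&Run tethers a nuclease to chromatin through an antibody, here against the V5 tag, and sequences the fragments that are released. Each of 6 lines had 3 anti-V5 libraries and 3 mouse IgG libraries, which entered only as the controls of the calls. Wild-type (WT) cells carried no tag and gave the antibody background. In the HIF-2a KIN line, the knock-in clone A31, both copies of the endogenous HIF-2a gene carried V5 and Halo at the N-terminus, so this group was 1 clone. The other lines were 786-O cells with an exogenous V5-Halo protein driven by the L30 promoter in addition to their own untagged HIF-2a. The proteins were HIF-2a, HIF-1a and 2 chimeras. HIF-2a/1a joined residues 1 to 365 of HIF-2a to residues 364 to 826 of HIF-1a, and HIF-1a/2a joined residues 1 to 363 of HIF-1a to residues 366 to 870 of HIF-2a. The first name gives the part with the DNA-binding domain (DBD) and the second the intrinsically disordered region (IDR). All lines share the parent 786-O cell, which lacks working VHL and working HIF-1a. The replicates were given as biological, with no word on separate clones, so the p-values below measure the spread between these libraries. Peak lists hold binding and no expression, so the renal identity of the cells was not checked with markers.

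Insulin-like growth factors 1 and 2 are secreted hormones that signal growth and survival through IGF1R, a receptor tyrosine kinase. IGF2R takes up IGF2 and delivers it to lysosomes without such a signal. The 6 binding proteins carry the hormones outside the cell, prolong their life and limit their access to IGF1R. Several of these genes, IGFBP1 and IGFBP3 among them, are known to be induced in hypoxia, and HIF dimers bind the hypoxia response element (HRE) with the core ACGTG or GCGTG.

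Regions are called by the member with the nearest transcription start and by the distance of the strongest summit from that start, negative upstream. The windows of 151 bases around the strongest summit are shown for 6 sites on the plus strand of hg38, since the results below turn on them, with each ACGTG or GCGTG of either strand in capitals. The merged IGF1R regions were called in every tagged library. At +217.8 kb the peaks of HIF-2a replicate 1 and HIF-1a/2a replicate 1 did not reach the window shown. The IGFBP2 and IGFBP3 sites were called in no knock-in library, and the IGFBP6 sites were called in 14 and 12 of the 15 tagged libraries.
IGF1R +128.6 kb, chr15:98777107-98777257: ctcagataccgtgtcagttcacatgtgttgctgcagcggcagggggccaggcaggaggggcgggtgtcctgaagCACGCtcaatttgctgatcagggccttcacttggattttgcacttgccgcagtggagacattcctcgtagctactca
IGF1R +217.8 kb, chr15:98866229-98866379: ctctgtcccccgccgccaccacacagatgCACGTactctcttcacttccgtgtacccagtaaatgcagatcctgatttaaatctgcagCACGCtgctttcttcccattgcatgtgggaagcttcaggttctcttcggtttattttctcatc
IGFBP2 -25.8 kb, chr2:216606923-216607073: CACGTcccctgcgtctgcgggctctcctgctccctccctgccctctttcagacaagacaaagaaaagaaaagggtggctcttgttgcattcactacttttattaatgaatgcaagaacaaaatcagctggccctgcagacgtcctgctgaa
IGFBP3 -1.7 kb, chr7:45923473-45923623: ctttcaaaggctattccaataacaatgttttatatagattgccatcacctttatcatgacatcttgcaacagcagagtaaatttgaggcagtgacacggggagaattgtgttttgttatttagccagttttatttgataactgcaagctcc
IGFBP6 -31.2 kb, chr12:53066195-53066345: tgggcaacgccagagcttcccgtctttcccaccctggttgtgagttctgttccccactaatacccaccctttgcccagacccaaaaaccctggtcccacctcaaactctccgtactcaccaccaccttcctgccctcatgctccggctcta
IGFBP6 -17.8 kb, chr12:53079513-53079663: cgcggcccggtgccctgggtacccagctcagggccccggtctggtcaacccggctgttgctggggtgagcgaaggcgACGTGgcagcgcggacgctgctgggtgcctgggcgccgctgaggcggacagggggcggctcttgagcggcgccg

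The motif stood within 50 bp of the strongest summit in 13 of the 29 member regions, against 24.1% of all 25783 regions. Among regions called in at least 12 of the 15 tagged libraries it was found in 5 of 6 member regions and in 31.1% of all 4553. The 5 include IGFBP6 -50.3 kb at the TNS2 promoter, whose strongest summit lay 317 bp outside the window. They also include IGFBP6 -17.8 kb near the SPRYD3 start and IGFBP6 +26.5 kb in an intron of SOAT2. In the first IGF1R site the middle of the motif lay 1 bp from the summit, and in the second 15 bp. In IGFBP6 -17.8 kb it lay 4 bp away. IGFBP2 -25.8 kb had its nearest motif at 73 bp and IGFBP6 -31.2 kb at 148 bp. The 2 sites upstream of IGFBP3 with summits in the most libraries had none within 50 bp. These are matches of letters only, and a window without them says nothing about binding of the factor. An AP-1 motif (TGACTCA or TGAGTCA) lay within 50 bp in 2 of the 29 regions, against 8.29% of all regions. Promoters of 7 of the 8 genes were in the RefSeq table (GRCh38.p14, 250 bases before to 50 after a start), and those of 4 genes held the HRE core, against 52.4% of all genes in that table. They were IGF1R, IGF2R, IGFBP2 and IGFBP3.

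Lists differed in length, and with it the number of member peaks. WT lists held 392 to 9508 peaks, KIN lists 3984 to 13193, HIF-2a lists 5906 to 20651, HIF-2a/1a lists 12371 to 20808, HIF-1a lists 15058 to 20572 and HIF-1a/2a lists 11679 to 18999. The deposited values imply depths of 0.241 to 0.625 fragments per base, and the weakest peaks at genome-mean background rested on 4 to 6 fragments. A region that was not called missed the authors' threshold at this depth and is not shown to be unbound. Member peaks numbered 0, 6 and 0 in WT replicates 1 to 3, and 3, 10 and 7 in KIN. They numbered 6, 17 and 5 with HIF-2a, 17, 24 and 13 with HIF-2a/1a, 22, 21 and 16 with HIF-1a, and 12, 18 and 13 with HIF-1a/2a. Per 10000 peaks of the list this was 7.53 to 9.57 in KIN, 8.23 to 9.10 with HIF-2a, 10.0 to 11.5 with HIF-2a/1a, 10.1 to 14.6 with HIF-1a and 9.19 to 11.1 with HIF-1a/2a. All 6 WT peaks came from replicate 2, the longest WT list at 9508 peaks, and no member region was called in 2 WT libraries. WT replicates 1 and 3 held only 392 and 743 peaks, so lists this short left little room for a member call.

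IGF1R, the signalling receptor, was the member with the most regions. Its gene body at chr15:98648539-98964530 and the flanks held 10 of the 29 regions, more than in the windows of 96.4% of protein-coding genes, whose median was 2. The window is also long, 416 kb against a median of 127 kb. The other members with their nearest regions were IGFBP6 with 6, IGFBP2 and IGFBP4 with 3 each, IGFBP1, IGFBP3 and IGFBP5 with 2 each, and IGF2R with 1. The windows of IGFBP1 and IGFBP3 overlap, as do those of IGFBP2 and IGFBP5, and shared peaks were given to the nearer start.

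**Figure D1:**
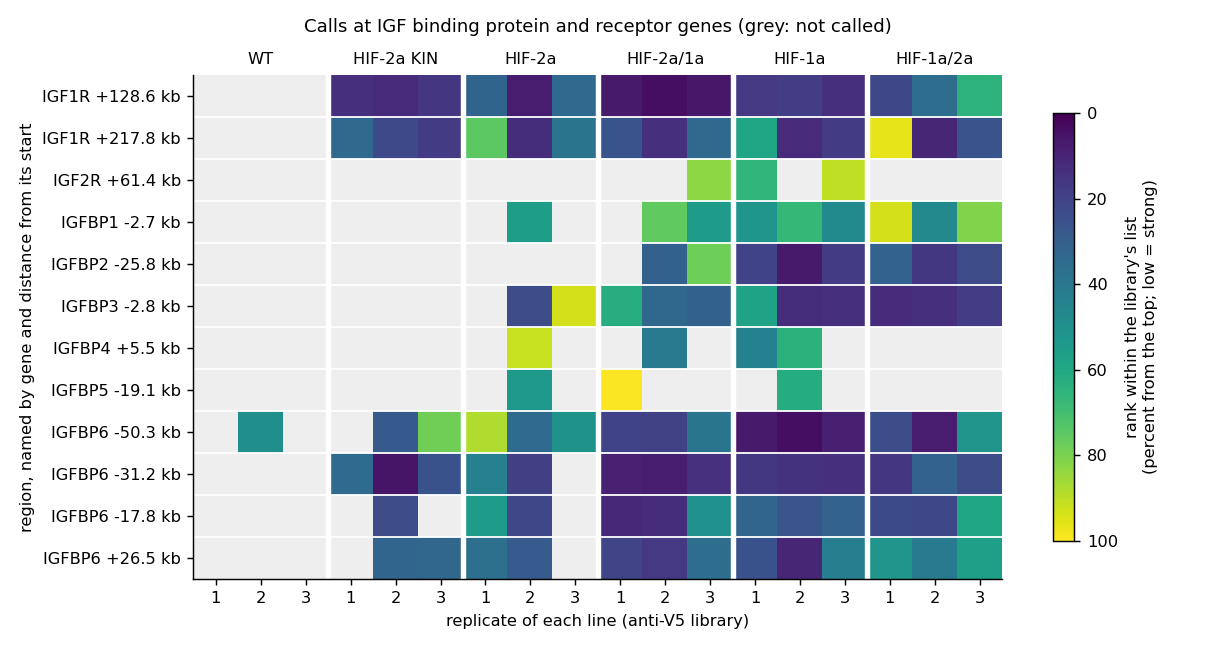
Each row is one of 12 member regions, called in at least 12 tagged libraries or in as many as any other region of its gene, and each column an anti-V5 library, grouped by line, with colour for the rank of the call within its list in percent from the top and grey for no call. The 2 IGF1R introns are filled in all 15 tagged libraries, the IGFBP1, IGFBP2 and IGFBP3 rows are empty in the 3 KIN libraries, and in the rows shown WT is empty but for 1 call at IGFBP6 -50.3 kb.

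Of the 29 member regions, 2 were called in all 15 tagged libraries, against 6.67% of all regions. Both lay in introns of IGF1R, so 1 of 8 members had such a region, against 13.2% of 20033 protein-coding genes. In the comparison of tagged with WT libraries by Fisher's exact test (15 against 3, two-sided), the same 2 regions passed at an adjusted p of 0.0263, against 4.66% of 25783 regions. This is the smallest adjusted p that the comparison gave. IGFBP6 -31.2 kb, called in 14 tagged and 0 WT libraries, had an adjusted p of 0.0657 by the same test. For the members a pass therefore restates a call in every tagged library and in no WT library. Of the WT lists, those of replicates 1 and 3 held only 392 and 743 peaks. The members' shares lie near those of all regions.

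The leading region, IGF1R +128.6 kb at chr15:98776657-98777469, had all its summits within 88 bp. Strength is given as rank within the library's list by the deposited -log10 p, in percent from the top, so that a low value is a strong call. A longer list gives the same place a lower percent, so these values also depend on list length. In KIN it ranked at 13.7%, 12.5% and 15.8% in replicates 1 to 3. With HIF-2a it ranked at 32.4%, 7.66% and 34.0%, the middle value being from the long list. The region was strongest with HIF-2a/1a, at 7.35%, 3.57% and 6.46%, where the deposited fold enrichment over local background reached 115. It ranked at 16.7%, 18.0% and 13.9% with HIF-1a and at 21.6%, 35.7% and 64.6% with HIF-1a/2a. The 3 HIF-2a/1a libraries thus had the lowest percents of all, and HIF-1a/2a held the weakest call by this measure.

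The second intron, IGF1R +217.8 kb at chr15:98865471-98866913, was less even. It ranked at 34.0%, 22.2% and 17.2% in KIN and at 75.0%, 13.1% and 38.5% with HIF-2a. The ranks were 26.1%, 14.0% and 34.0% with HIF-2a/1a, 59.2%, 12.5% and 17.3% with HIF-1a and 96.2%, 10.9% and 25.8% with HIF-1a/2a. The lines overlapped throughout, and replicate 2, the longest list of each exogenous line, held the lowest percent in each of them. With HIF-2a, though, the region stood at place 2703 of 20651 in replicate 2 and at place 2273 of 5906 in replicate 3. In HIF-1a/2a replicate 1 the call rested on 6 fragments, close to the floor. The summits of this region spread over 677 bp. In HIF-2a replicate 1 and HIF-1a/2a replicate 1 they lay 217153 and 217140 bp from the start. In the other tagged libraries they lay 217693 to 217817 bp from it. The calls at 75.0% and 96.2% were thus joined to the region by overlapping peaks of other lists. They enter its counts, tests and scores.

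Ranks of regions called in all 12 exogenous libraries were compared on a normal-score scale, which does not depend on list length. The scale has a mean of 0 over the 2566 such regions, and 1 unit is 1 SD. Of the member regions only 3 could be tested, the 2 IGF1R introns and a region at the edge of the IGFBP6 window that is described with IGFBP6. IGF1R +128.6 kb scored 0.467 ± 0.237 with HIF-2a/1a, -0.268 ± 0.161 with HIF-2a, -0.430 ± 0.325 with HIF-1a and -1.35 ± 0.705 with HIF-1a/2a (mean ± SD, n = 3 each). Proteins with the HIF-2a DBD scored higher than those with the HIF-1a DBD by 0.99 (SE 0.227, limma adjusted p = 0.00928). Proteins with the HIF-2a IDR scored lower than those with the HIF-1a IDR, with a difference of -0.83 (SE 0.227, limma adjusted p = 0.0187). The DBD and IDR differences ran in opposite senses. By construction the first less the second is HIF-2a/1a minus HIF-1a/2a, the lines with the highest and lowest means. No difference was called between the full-length proteins (HIF-1a minus HIF-2a -0.16, 95% interval -0.84 to 0.52, limma adjusted p = 0.765). Each protein was carried by a single line, so domain, line and amount of protein cannot be told apart.

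The IDR difference at this intron kept its size but not its call on fold enrichment in place of -log10 p, with -0.87 on its rank (limma adjusted p = 0.181) and -0.83 on its log2 value (limma adjusted p = 0.171). It was -0.69, -0.74 and -0.74 without HIF-1a/2a replicate 3, HIF-2a replicate 1 or HIF-2a replicate 3, where the limma adjusted p was 0.0546, 0.0512 and 0.0547. The DBD difference passed in each alternative run, with limma adjusted p between 0.00173 and 0.0323. The median size over all regions tested was 0.33 for the IDR and 0.29 for the DBD. At IGF1R +217.8 kb neither passed, with -0.34 for the IDR (95% interval -1.29 to 0.61, limma adjusted p = 0.625) and 0.16 for the DBD (-0.79 to 1.12, limma adjusted p = 0.849). Among all 3 member regions, 2 passed for the IDR against 20.8% of 2566 regions, 2 for the DBD against 13.8%, and 1 for HIF-1a against HIF-2a against 20.5%.

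**Figure D2:**
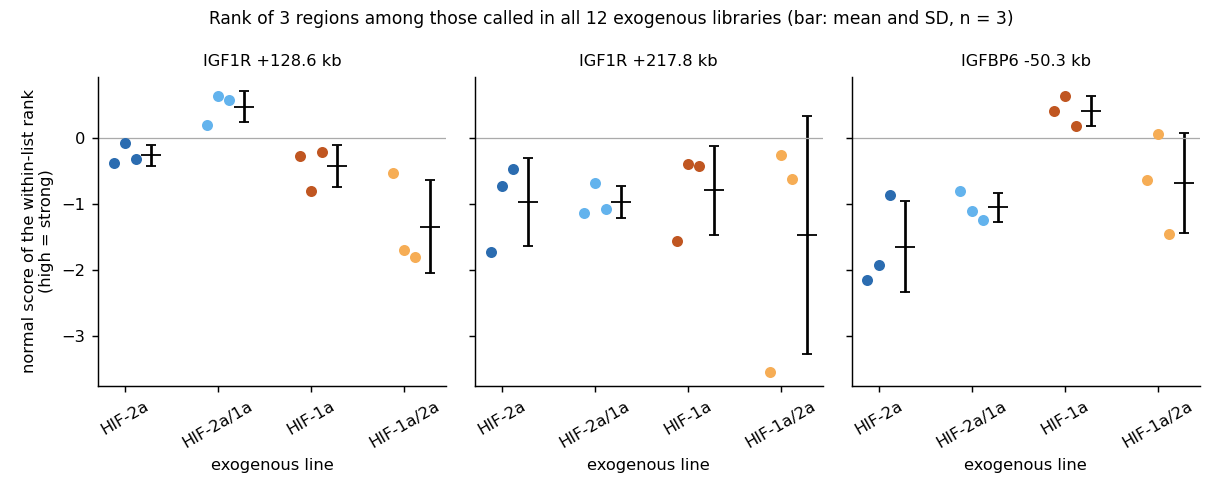
The normal score of the within-list rank, higher for stronger calls, is plotted for the 4 exogenous lines at the 3 member regions called in all of their 12 libraries, as points for the replicates and a bar for the mean and SD (n = 3). At IGF1R +128.6 kb the HIF-2a/1a points are highest and the HIF-1a/2a mean lowest, and at IGFBP6 -50.3 kb the HIF-1a points are highest.

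Exogenous HIF-2a was compared with the endogenous protein at regions called in all 15 tagged libraries. Neither IGF1R intron passed, against 6.49% of 1602 regions. HIF-2a minus KIN was -0.64 at +128.6 kb (95% interval -1.34 to 0.05, limma adjusted p = 0.25) and -0.80 at +217.8 kb (-1.89 to 0.28, limma adjusted p = 0.378). These intervals allow differences of more than 1 unit toward a lower rank with the exogenous protein. On fold enrichment the difference at +128.6 kb was -0.12 both on its rank and on its log2 value. At +217.8 kb it was -0.62 on both.

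With the best median rank among the members' fully shared regions, IGF1R +128.6 kb was set against all other regions called in all 15 tagged libraries. The Pearson correlation of the normal scores over 15 libraries was highest for a region +14.2 kb from the start of MRAS (r = 0.824), followed by one -12.3 kb from EXOSC2 (r = 0.818). The median over 1601 regions was 0.0214. The points share libraries and lines, and these values are descriptions.

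The IGF1R promoter was called less widely. IGF1R -0.1 kb, with its summit -87 bp from the start, was called in 6 of 15 tagged libraries, 1 with HIF-2a, 2 with HIF-2a/1a, 2 with HIF-1a and 1 with HIF-1a/2a, with folds of 6.94 to 9.39. A further intron region, IGF1R +248.7 kb, was called in 9, with 1 KIN library and 2 of each exogenous line. The other 6 IGF1R regions were called in 2 or 3 libraries.

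**Figure D3:**
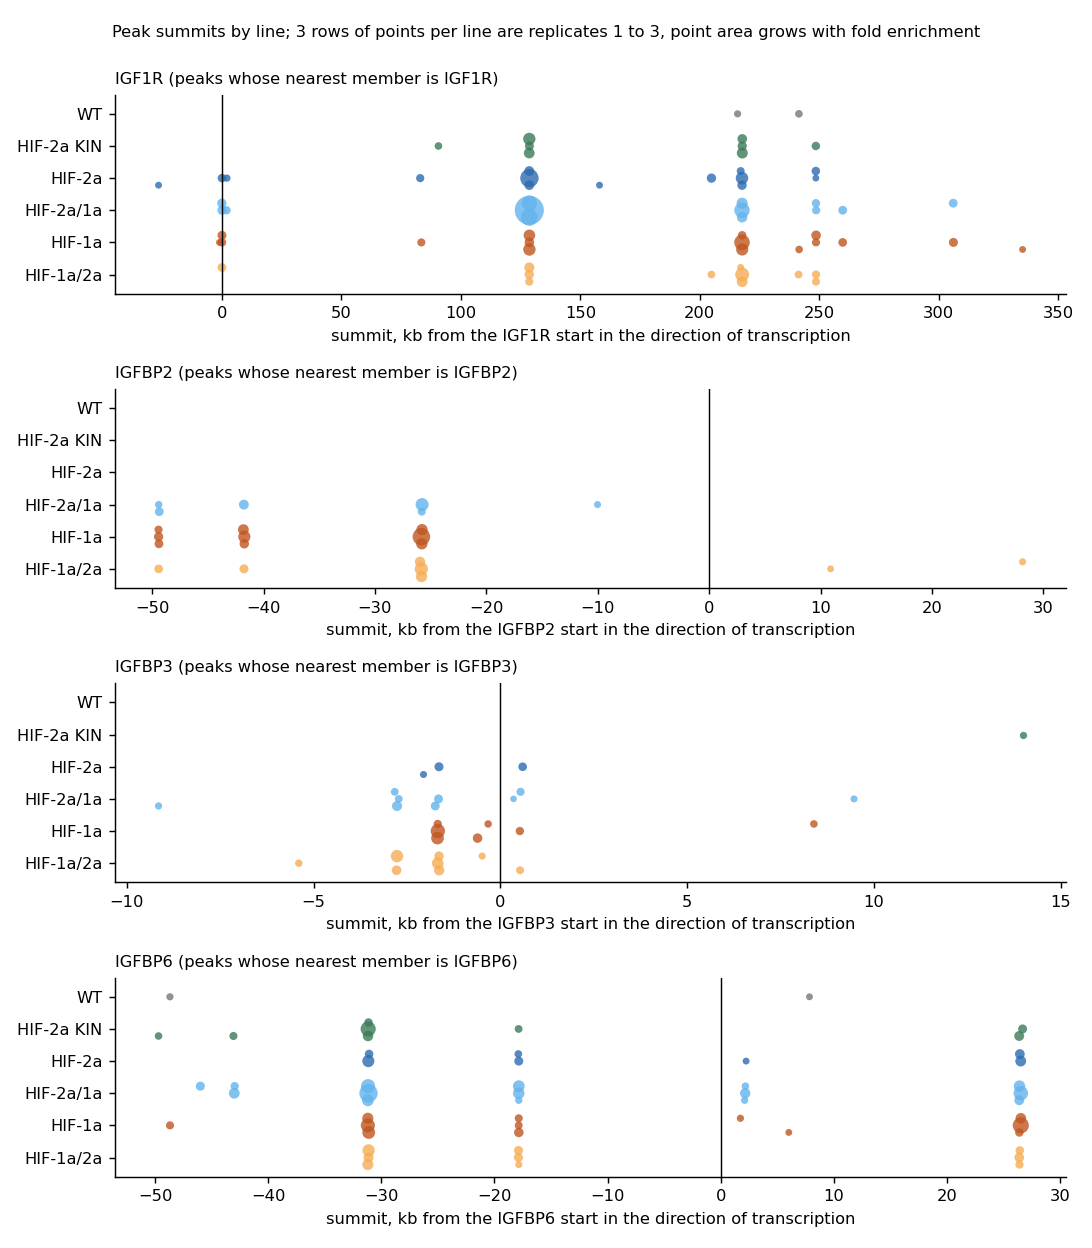
Summits of single peaks are plotted by distance from the gene start in kb, in the direction of transcription, for IGF1R, IGFBP2, IGFBP3 and IGFBP6, with 1 row of points per replicate within each line and point area growing with fold enrichment. The 2 IGF1R introns at +128.6 and +217.8 kb are filled in all tagged lines, and the IGFBP2 panel holds points only in HIF-2a/1a, HIF-1a and HIF-1a/2a.

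IGF2R, the clearance receptor, had a single weak region in an intron, IGF2R +61.4 kb at chr6:160030332-160030723. It was called in HIF-2a/1a replicate 3 at 83.1% of its list and in HIF-1a replicates 1 and 3 at 65.9% and 90.3%, on 8 to 9 fragments. Its promoter was called in no library.

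IGFBP2, a carrier that also binds matrix and integrins, had its 3 regions upstream, and they were called with HIF-1a and the chimeras alone. IGFBP2 -25.8 kb at chr2:216606333-216607630, within the noncoding gene ENSG00000225794, was the strongest binding-protein region without a KIN call. It ranked at 20.0%, 7.04% and 17.7% with HIF-1a, where the fold reached 40.4. With HIF-1a/2a it ranked at 31.4%, 16.3% and 23.0%. HIF-2a/1a gave calls at 30.9% in replicate 2 and 78.0% in replicate 3 and none in replicate 1. No KIN, HIF-2a or WT library had a call. The HIF-2a lists held 6590, 20651 and 5906 peaks in replicates 1 to 3, and whether list length played a part was not tested.

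By DBD, IGFBP2 -25.8 kb was called in 2 of 6 libraries with the HIF-2a DBD and in 6 of 6 with the HIF-1a DBD (Fisher's exact test, two-sided, unadjusted p = 0.0606, adjusted p = 1). No member region had an unadjusted exact p under 0.05, against 0.562% of 25285 regions for the DBD and 1.41% for the IDR. With adjusted p-values 0 member regions passed for DBD or IDR, against 0% and 0% of all regions. Cut to equal lengths of 3984 peaks, the lists kept this region in 3 HIF-1a and 2 HIF-1a/2a libraries.

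The other IGFBP2 regions shared the lines. IGFBP2 -41.7 kb was called with HIF-1a at 21.8%, 18.1% and 43.7%, and once each with HIF-2a/1a and HIF-1a/2a. IGFBP2 -49.4 kb was called with HIF-1a at 40.9%, 46.7% and 50.2%, with HIF-2a/1a in 2 libraries and with HIF-1a/2a in 1. These 3 regions were the only member regions called in 3 of 3 HIF-1a and 0 of 3 HIF-2a libraries, a pattern of 3.82% of 25285 regions, and none showed the reverse. The pattern was set after the values were seen, and 2 of the 3 HIF-2a lists were the shortest of the exogenous lists, at 6590 and 5906 peaks. The part of list length in it was not tested.

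IGFBP3, the main carrier of the hormones in blood, had its called sites close to the start. Merged peaks formed IGFBP3 -2.8 kb at chr7:45921060-45924890, which covers the promoter of this minus-strand gene and was called in 11 of 15 tagged libraries. No KIN library had a call. With HIF-2a it was called at 23.0% in replicate 2 and at 93.6% in replicate 3. It ranked at 62.3%, 33.2% and 31.1% with HIF-2a/1a and at 57.5%, 13.1% and 13.4% with HIF-1a. The HIF-1a/2a ranks were 12.5%, 13.6% and 18.2%. Each rank is that of the strongest peak in the merged region, and the summits of these peaks lay at different sites. For HIF-1a/2a the summit was -2.8 kb from the start in replicate 1 and -1.7 kb in replicates 2 and 3. At -1.7 kb alone the HIF-1a/2a ranks were 25.3%, 13.6% and 18.2%.

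Within that region the summits fell into separate sites. The site -1.7 kb from the start held a summit in 9 libraries, 3 with HIF-1a, 3 with HIF-1a/2a, 2 with HIF-2a/1a and 1 with HIF-2a, and its fold reached 25.9. The site at -2.8 kb held a summit in 5 libraries, 3 with HIF-2a/1a and 2 with HIF-1a/2a, and in 0 with HIF-1a. A site 0.5 kb inside the gene held a summit in 5 libraries, with folds of 3.34 to 7.72. All 3 HIF-1a libraries thus had a summit at -1.7 kb and none at -2.8 kb, and all 3 HIF-2a/1a libraries had a summit at -2.8 kb. Each peak has 1 summit, so a long peak counts at a single site. The HIF-1a/2a replicate 2 peak, 3761 bp long and counted at -1.7 kb, also covered the -2.8 kb site. A site without a summit is therefore not shown to lie outside a called peak. The sites were set by a gap of 250 bp between summits after the values were seen, and no test was made.

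IGFBP1, a carrier made in liver that rises with fasting and hypoxia, lies beside IGFBP3. IGFBP1 -2.7 kb at chr7:45885136-45885988 was called in 9 tagged libraries, in none of them above 47.0% of the list. It ranked at 52.3%, 66.6% and 47.4% with HIF-1a and at 93.6%, 47.0% and 80.9% with HIF-1a/2a. HIF-2a/1a gave 75.4% and 55.3% in replicates 2 and 3, and HIF-2a gave 55.9% in replicate 2. In lists cut to 3984 peaks it was called in 0 libraries. IGFBP1 +0.8 kb, in an intron beside the promoter, was called in replicate 2 of each exogenous line, the longest list of that line, and in no other library, with folds of 9.04 to 12.5.

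The IGFBP1 -2.7 kb, IGFBP2 -25.8 kb and IGFBP3 -2.8 kb regions were thus called in 0 of 3 KIN libraries and in 8 to 11 of 12 exogenous libraries. A rule of at least 8 of 12, set after these values were seen, held for these 3 of 29 member regions and for 8.00% of 25285 regions, so it is not particular to the members. KIN replicate 2 had a list of 13193 peaks, longer than the HIF-1a/2a lists of replicates 1 and 3 and the HIF-2a/1a list of replicate 3. HIF-1a/2a replicates 1 and 3 called all 3 regions. Exogenous HIF-2a, the protein that KIN also carries, gave calls in 1, 0 and 2 of 3 libraries at IGFBP1, IGFBP2 and IGFBP3, so most of the calls came from HIF-1a and the chimeras. The protein carried, its amount, the clone and list length cannot be told apart.

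**Figure D4:**
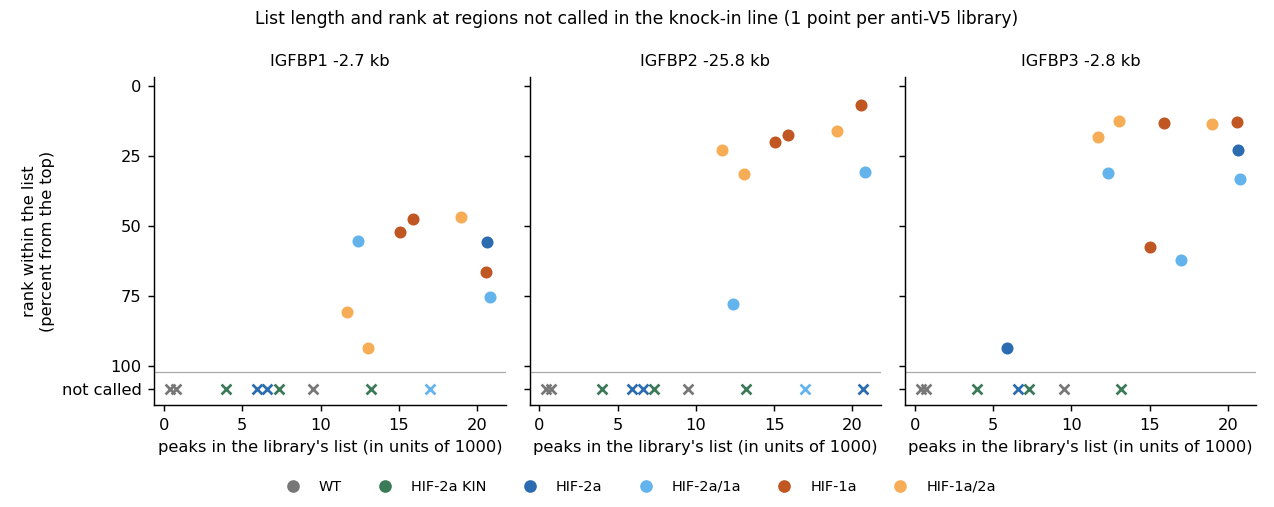
Each point is an anti-V5 library, placed by the number of peaks in its list (in units of 1000) and by the rank of its call at IGFBP1 -2.7 kb, IGFBP2 -25.8 kb or IGFBP3 -2.8 kb in percent from the top, with crosses for libraries without a call. At IGFBP2 -25.8 kb all HIF-2a libraries, with lists of 5906 to 20651 peaks, are crosses, and the HIF-1a/2a library with 11679 peaks has a call at 23.0%.

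IGFBP6, a carrier that prefers IGF2, lies in a gene-dense stretch, and its 4 widely called regions lay nearer to other genes. IGFBP6 -31.2 kb at chr12:53065658-53066907, in an intron of SPRYD3, was called in 14 tagged libraries. It ranked at 35.0%, 5.84% and 25.3% in KIN, at 43.4% and 19.1% in HIF-2a replicates 1 and 2, and at 9.08%, 8.38% and 14.3% with HIF-2a/1a. With HIF-1a the ranks were 16.2%, 14.7% and 13.4%, and with HIF-1a/2a 15.9%, 31.4% and 23.6%. Only HIF-2a replicate 3, the shortest exogenous list, had no call, and 13 libraries kept it in lists cut to 3984 peaks.

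IGFBP6 -17.8 kb, at -198 bp from the SPRYD3 start, was called in 12 tagged libraries at 11.1% to 58.6%, and in 1 of 3 KIN libraries. IGFBP6 +26.5 kb, in an intron of SOAT2, was called in 13 tagged libraries at 10.9% to 56.3%. In the gene itself, IGFBP6 +2.2 kb was called in 5 libraries, 3 of them with HIF-2a/1a, with folds of 3.94 to 12.2. No member region of IGFBP6 passed the comparison with WT, the smallest adjusted exact p being 0.0657 at -31.2 kb.

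IGFBP6 -50.3 kb at chr12:53046722-53048841 covers the TNS2 promoter, with its strongest summit 150 bp inside that gene and 317 bp outside the window. It counted as a member because 3 of its 17 peaks had a summit inside, and in 1 of 15 libraries the strongest summit was inside. Its ranks are therefore those of the TNS2 site. It was called in 14 tagged libraries and in WT replicate 2 at 49.9%. It ranked at 7.42%, 3.82% and 8.86% with HIF-1a and at 88.0%, 34.9% and 51.5% with HIF-2a, with no overlap. The normal score was higher with HIF-1a than with HIF-2a by 2.06 (SE 0.378, limma adjusted p = 0.00222), with -1.22 for HIF-2a minus HIF-1a DBD (limma adjusted p = 0.00733) and -0.84 for the IDR (limma adjusted p = 0.0362). The IDR difference passed no longer when any of 9 of the 12 exogenous libraries was left out, where it lay between -0.90 and -0.62, nor on fold enrichment, with -0.83 on its rank (limma adjusted p = 0.205) and -0.75 on its log2 value (limma adjusted p = 0.239). The DBD difference was -1.18 on the rank of fold enrichment (limma adjusted p = 0.0507). At the window edge elsewhere, IGFBP2 had 7 peaks in the outermost 5 kb inside and 5 in the next 5 kb outside, and IGFBP4 had 0 inside and 13 outside.

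IGFBP4, which limits IGF signals until it is cleaved, and IGFBP5, which is held in the matrix, had weak regions. IGFBP4 +5.5 kb, in its intron at chr17:40448800-40449162, was called at 91.7% in HIF-2a replicate 2, at 41.4% in HIF-2a/1a replicate 2, where the fold was 16.1, and at 44.1% and 64.1% in HIF-1a replicates 1 and 2. IGFBP4 +33.0 kb, in TNS4, was called in 2 of 3 KIN libraries and 1 of 12 exogenous libraries, at 71.5% to 73.7%. IGFBP5 -19.1 kb at chr2:216713758-216714858, in the noncoding gene DIRC3-AS1, was called in 3 libraries at 53.3% to 99.6%, the last on 5 fragments. IGFBP5 +3.0 kb was called in 3 tagged libraries and in WT replicate 2. IGFBP4 +5.5 kb and IGFBP5 -19.1 kb were called in 0 libraries when lists were cut to 3984 peaks.

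The remaining genes of the pathway, the hormones, insulin receptors, proteases, adaptors and IGF2 mRNA-binding proteins, were read in the same windows. Of 18 genes, 6 had a region called in all 15 tagged libraries, against 13.2% of protein-coding genes. These were SHC1 and IRS1, adaptors of the receptor, GRB10, which inhibits it, STC1 and STC2, which block the proteases that cleave binding proteins, and IGF2BP3. Their regions ranked at a median of 7.65%, 2.00%, 6.39%, 29.4%, 12.7% and 23.0% in that order. The IGF2BP3 region lay in an exon of GPNMB, and the IRS1 and STC1 regions lay 108404 and 56460 bp from the starts of those genes. The STC2 region did not pass the comparison with WT (Fisher's exact test, adjusted p = 0.166). The windows of GRB10, IGF2BP3 and IRS1 were longer than the median of 127 kb, at 303400, 260283 and 168509 bases. Those of SHC1, STC1 and STC2 were shorter. The part of window length in the count of genes was not tested. Of the 92 regions of these 18 genes, 5 passed the comparison with WT by Fisher's exact test, against 4.66% of all regions. For the IDR and the DBD 0 had an adjusted or unadjusted exact p under 0.05, against 1.41% and 0.562% of all regions unadjusted. The hormone genes IGF1 and IGF2 had 1 and 4 regions, none called in all tagged libraries, and INSR, the insulin receptor, had 0.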

How the data were processed

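Cut&Run libraries of 6 lines of 786-O cells were analysed, 3 anti-V5 and 3 IgG each. Per the study's methods, the authors aligned reads to hg38 with Bowtie2 2.3.4.1 and ran MACS2 with duplicates kept and a q-value limit of 0.01, each anti-V5 library against IgG, and removed blacklisted regions with BEDTools 2.28.0. Per the submitters' processing notes, SAMtools 1.8 and deepTools 3.5.1 were also used. The 18 deposited lists give the fold enrichment at the summit (a ratio to local background), its p-value and its q-value, the last 2 as -log10. These values are not comparable between lists, so ranks within a list were used. IgG libraries were not analysed separately. Groups came from the sample titles.

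Peaks from different lists that shared 1 bp or more were joined, and regions called in at least 2 of 18 libraries were kept. A merged region was a member if any of its summits lay in a member window. Calls were compared per region with two-sided Fisher's exact tests, Benjamini-Hochberg adjusted over all regions, the IDR and DBD tests without regions called in at least 2 WT libraries. Ranks by -log10 p were turned into normal scores and fitted with limma 3.58.1 in R 4.3.3 on 4 or 5 line means with no replicate block, with adjustment over all regions tested. The limma step was tested on simulated data. Scores, counts and figures were made with Python 3.11.15, NumPy 2.4.6, SciPy 1.17.1, pandas 2.3.3 and matplotlib 3.10.9, and genes came from GENCODE 44 on the same build.

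Fragments at a summit and depth were solved from the deposited fold, taken as pileup plus 1 over background plus 1, and the Poisson -log10 p. Whole fragments matched 100% of the peaks with -log10 p under 100 within 0.001, or within 0.01 in HIF-2a/1a replicate 2, whose pileup was scaled by 0.949. The lowest background of a list was taken as its depth.

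Regions are named where they were called in at least 12 of 15 tagged libraries, had an unadjusted Fisher p under 0.05 for the IDR or DBD, were called in at least 2 WT libraries, or were the most often called of their member. Others are summarised or said to be picked after their values were seen. The additional regions of IGF1R, IGFBP1, IGFBP2, IGFBP4, IGFBP5 and IGFBP6 named in the text, and the sites within the IGFBP3 region, were so picked. The members, pathway genes and tests were chosen with earlier results of these data known. Alternatives were a -log10 q of at least 5, lists cut to 3984 peaks, summits joined within 250 bp, windows of 25 and 100 kb, each library left out, ranks by fold, log2 fold enrichment and a replicate block. Of the regions most like the leading IGF1R intron, 1 is not reported here.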

Additional observations from a re-analysis of the deposited data

How the results depend on the processing

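Of 207 alternative values for the counts of member regions or genes called or passing a test, 176 stayed within 1.5 times the reported count. A count of 0 that stayed at 0 was taken as unchanged. The reported counts for the IDR calls, the DBD calls and HIF-2a against KIN were 0, so the 176 are no measure of stability for these. The number of member regions called in all tagged libraries was 1 with a -log10 q of at least 5, 0 in lists of equal length, 1 with summits joined within 250 bp and 5 in windows of 100 kb (2 as reported). It was 2 to 3 with single libraries left out. The number of members with such a region was 0 in lists of equal length and 4 in windows of 100 kb (1 as reported), and 1 to 2 with single libraries left out, 2 without HIF-2a KIN replicate 1 or HIF-2a replicate 3. Regions passing the comparison with WT were 1, 0, 1 and 4 under the same 4 settings. They were 0 to 3 with single libraries left out, 0 without any WT replicate, where 0 of all regions passed too because 15 libraries against 2 leave too few arrangements.

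Member regions passing for the IDR rank were 0 on the rank of fold enrichment, 0 on log2 fold enrichment and 1 in windows of 25 kb (2 as reported), and 0 to 2 with single libraries left out. For the DBD rank they were 1 on the rank of fold enrichment and 1 in windows of 25 kb, and 2 to 3 with single libraries left out. For HIF-1a against HIF-2a they were 0 in windows of 25 kb, which leave out the TNS2 promoter, and for HIF-2a against KIN 0 in every setting run. At IGF1R +217.8 kb differences that never passed changed sign: the DBD difference was -0.0198 on log2 fold enrichment and between -0.364 and 0.467 with single libraries left out, the IDR difference lay between -0.647 and 0.180, and HIF-1a minus HIF-2a between -0.299 and 0.584. At IGF1R +128.6 kb HIF-1a minus HIF-2a, which never passed, lay between -0.290 and 0.0284 with single libraries left out and was -0.451 on the rank of fold enrichment and -0.505 on log2 fold enrichment. The causes of these changes were not tested.

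Same-numbered libraries deviated from their line means with correlations of 0.027 to 0.178 over 30 pairs of libraries. All were positive, and 13 were over 0.1. Replicate 2 also had the longest list of each line. The main fits and the exact tests took no account of replicate number, and whether it marks a shared batch was not tested. With the replicate block the limma adjusted p at IGF1R +128.6 kb was 0.0128 for the DBD and 0.0215 for the IDR, and 2, 2, 1 and 0 member regions passed for the DBD, the IDR, HIF-1a against HIF-2a and HIF-2a against KIN. Depth sets the floor of 4 to 6 fragments for a call. Lists of equal length keep the strongest peaks by construction, and in them IGFBP1 -2.7 kb, IGFBP4 +5.5 kb, IGFBP5 -19.1 kb and IGF2R +61.4 kb were called in 0 libraries.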
